A study of Mus musculus with 24 samples.

Results

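The genes described here are those that encode the chains of the collagens, and they were followed in TM3 cells, a mouse line derived from Leydig cells of the testis, through 24 h after sham treatment or exposure to nanosecond pulsed electric fields (nsPEF). The members were every gene whose symbol names a collagen chain by type and chain number. Among the 23787 named genes on the array 44 were of this kind, carried by 70 probes. A gene was tested where one of its probes was detected, that is well above background by the scanner software, in 2 or more of the 4 samples of some group. This held for 35 genes, and 22 of them were detected on all 24 arrays.

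The array study asked how gene expression in these cells responds to nsPEF over time. Cells were exposed in suspension in cuvettes to 80 pulses of 60 ns at 14 kV/cm, and sham samples went through the same handling with no pulses. RNA was taken at 0, 4 and 24 h from 4 biological replicates per group, so that 6 groups (sham at 0, 4 and 24 h, nsPEF at 0, 4 and 24 h) were measured on 24 one-colour Agilent arrays of 1 sample each. All groups are the same cell line, and the harvest, the washing and the time in suspension were shared by sham and exposed samples. The times differed in handling. Per the paper, the 0 h cells had just been through prolonged preparation, with detachment, spinning, filtering and a change of medium. Cells at 4 and 24 h were harvested quickly. Time after treatment cannot be told apart from this difference in handling. The 8 arrays of a time point were on 1 slide, with the sham samples in its first row and the exposed samples in its second, so that time cannot be told apart from slide, nor treatment from slide row.

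Collagens are triple-helical proteins of the extracellular matrix, built from 3 chains that assemble in the endoplasmic reticulum. Fibrillar collagens such as types I, III and V form the fibrils that give connective tissue its strength, type IV forms the sheet-like network of basement membranes, type VI forms beaded filaments around cells, and FACIT collagens bind to the surface of fibrils. In the testis, collagens are found in the interstitium where Leydig cells lie and in the wall and basement membrane of the seminiferous tubules.

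The promoters of 6 collagen genes are given first. The 4 type IV genes are shown because they lie in neighbouring pairs whose members moved together at 4 h. Col1a2 and Col7a1 are shown as a gene that fell and a gene that rose at that time. The sequences are from RefSeq, build GRCm38.p6, each 300 bases long with 250 bases before and 50 after an annotated start of the gene, and each is written 5′ to 3′ on the strand of its gene. Capitals mark 3 motifs searched on both strands. The first is CCAAT, written as ATTGG where it is on the other strand. The second is GGGCGG, the core of the GC box, written as CCGCCC on the other strand. The third is TATAAA, the core of the TATA box, which was found in none of these 6 windows. The windows are chr8:11312777-11313076 on the minus strand, chr8:11312555-11312854 on the plus strand, chrX:141475169-141475468 on the plus strand, chrX:141474027-141474326 on the minus strand, chr6:4505368-4505667 on the plus strand and chr9:108953336-108953635 on the plus strand.
Col4a1: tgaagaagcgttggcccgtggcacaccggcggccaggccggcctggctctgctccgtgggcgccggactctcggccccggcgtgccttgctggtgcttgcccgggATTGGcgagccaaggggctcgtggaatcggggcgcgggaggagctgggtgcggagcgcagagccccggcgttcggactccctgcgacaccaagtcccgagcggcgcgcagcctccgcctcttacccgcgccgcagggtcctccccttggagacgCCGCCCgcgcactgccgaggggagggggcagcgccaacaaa
Col4a2: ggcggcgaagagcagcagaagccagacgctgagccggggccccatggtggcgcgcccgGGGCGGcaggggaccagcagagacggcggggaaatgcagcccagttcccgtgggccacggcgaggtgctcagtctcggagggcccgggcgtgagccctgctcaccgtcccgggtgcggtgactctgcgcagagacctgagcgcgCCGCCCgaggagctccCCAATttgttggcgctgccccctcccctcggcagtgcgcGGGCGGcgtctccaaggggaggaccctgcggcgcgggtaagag
Col4a5: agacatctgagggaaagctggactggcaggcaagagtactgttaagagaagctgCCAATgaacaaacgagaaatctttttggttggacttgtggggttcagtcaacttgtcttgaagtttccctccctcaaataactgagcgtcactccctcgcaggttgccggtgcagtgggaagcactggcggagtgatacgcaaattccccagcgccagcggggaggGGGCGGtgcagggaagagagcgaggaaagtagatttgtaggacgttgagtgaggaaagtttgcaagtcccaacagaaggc
Col4a6: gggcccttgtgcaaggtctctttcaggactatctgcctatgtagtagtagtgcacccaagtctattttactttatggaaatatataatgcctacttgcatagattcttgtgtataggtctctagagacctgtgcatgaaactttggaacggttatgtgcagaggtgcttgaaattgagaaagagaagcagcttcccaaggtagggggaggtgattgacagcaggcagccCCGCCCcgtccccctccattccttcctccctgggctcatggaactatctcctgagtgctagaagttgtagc
Col1a2: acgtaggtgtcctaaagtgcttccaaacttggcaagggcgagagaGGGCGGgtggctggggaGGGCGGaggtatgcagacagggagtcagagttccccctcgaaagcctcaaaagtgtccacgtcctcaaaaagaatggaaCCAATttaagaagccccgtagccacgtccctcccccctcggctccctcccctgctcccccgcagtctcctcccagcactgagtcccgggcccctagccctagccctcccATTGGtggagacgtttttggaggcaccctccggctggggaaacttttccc
Col7a1: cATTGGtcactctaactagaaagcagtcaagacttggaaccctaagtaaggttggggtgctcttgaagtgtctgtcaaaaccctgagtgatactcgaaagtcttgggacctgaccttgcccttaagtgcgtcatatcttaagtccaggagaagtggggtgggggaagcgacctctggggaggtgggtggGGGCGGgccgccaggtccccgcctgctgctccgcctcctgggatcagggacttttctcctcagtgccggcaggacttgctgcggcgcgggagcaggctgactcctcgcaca

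The start used for the window was the outermost one of the gene for Col4a2, Col1a2 and Col7a1, and lay 63 bases inside it for Col4a1, 49 for Col4a5 and 19 for Col4a6. Between these starts, Col4a1 and Col4a2 were 21 bases apart on opposite strands. Each of these 2 starts lay inside the other gene, so that the genes overlap at their starts, and their windows shared 78 bases. Col4a5 and Col4a6 were 1343 bases apart, also on opposite strands, and their windows shared 0 bases. Windows were found for 35 of the 44 collagen genes, 38 windows in all, since some genes have more than 1 annotated start. CCAAT on either strand was found in 34.2% of the collagen windows against 37.4% of all 32851 windows of the same length. TATAAA was found in 13.2% against 13.6%. GGGCGG was found in 60.5% of the collagen windows, 23 of 38, against 35.7% of all windows. These shares are a description of letters in windows and were not tested.

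Values are on the log2 scale and are relative to the 75th percentile of their own array, so that 0 is the brightness of a probe at that percentile. Different probes bind with different strength, and levels are compared within a gene only. The 75th percentile lay between 202 and 533 arbitrary units of intensity over the arrays. The share of probes well above background was 57.5% to 62.1% on sham arrays and 51.2% to 57.2% on nsPEF arrays. The negative control spots lay higher relative to the 75th percentile on nsPEF arrays (-6.86 to -5.89) than on sham arrays (-7.49 to -6.88). The part of this difference in the values of dim collagen probes was not tested. Of 7 Leydig cell genes listed, 6 were measured by a probe, and Insl3 was not measured here. Star, Cyp17a1 and Nr5a1 were well above background on all 24 arrays. Cyp11a1, the enzyme of the first step of steroid synthesis, and Lhcgr, the receptor for luteinising hormone, were well above background on 0 arrays, and Hsd3b1 on 1. In RNA from whole cultures, fewer cells of a kind and less RNA per cell cannot be told apart.

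The families differed in how many of their genes could be measured. All 11 fibrillar genes and all 9 FACIT genes were tested, as were 4 of 6 type IV genes, 4 of 6 type VI genes, 2 of 4 transmembrane genes, both multiplexin genes (Col15a1 and Col18a1), the anchoring fibril gene Col7a1, 1 of 3 short-chain genes (Col8a1) and Col26a1. The genes left untested were Col4a3, Col4a4, Col6a5, Col6a6, Col8a2, Col10a1, Col13a1, Col25a1 and Col28a1. Among these, Col4a3, Col4a4, Col6a6, Col10a1 and Col13a1 were well above background on no array with any of their probes. Col4a3 and Col4a4 encode chains found together in specialised basement membranes such as that of the kidney filter, and Col10a1 is a marker of hypertrophic cartilage. The remaining 4 untested genes reached that mark only on single arrays of a group.

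**Figure D1:**
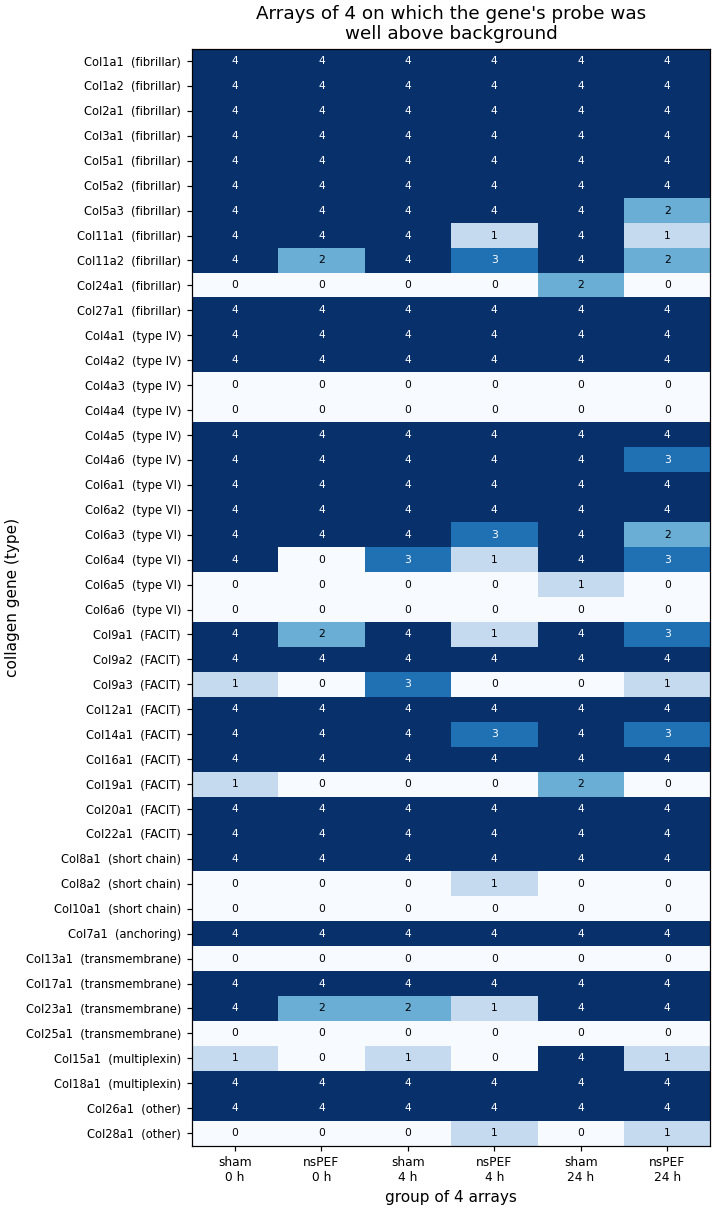
Number of arrays, out of 4 per group, on which the probe of each collagen gene was well above background, by gene and group. A set of 22 genes reached 4 of 4 in every group, and the untested genes lie at or near 0.

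At 4 h after sham treatment the genes of the main fibril-forming chains, types I and III, were lower than at 0 h, while those of type IV collagen chains 1 and 2, of the type V chains 1 and 3, and of types VII, XXII and XXVII were higher. Of the 35 tested genes 25 changed between 0 and 4 h in sham samples, 9 of them upwards and 16 downwards. Among all 16842 tested genes 65.4% changed, 30.8% upwards and 34.6% downwards, and the share was 71.4% among the collagen genes. With the normexp background correction the split was 6 up and 18 down. The median difference was -0.56 over the collagen genes and -0.04 over all genes. The 22 genes well above background on every array held 7 that rose and 12 that fell. The groups at 0 and 4 h did not overlap in 25 of 35 collagen genes and in 63.4% of all genes.

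Fibrillar genes were of both kinds, with 3 of 11 up and 7 down at 4 h. Col1a2 encodes the second chain of type I collagen, the main collagen of connective tissue. Sham samples had Col1a2 at 7.96, 7.84, 7.97 and 7.95 at 0 h, at 6.95, 6.97, 6.88 and 6.82 at 4 h and at 7.09, 7.14, 7.10 and 7.20 at 24 h. Exposed samples had Col1a2 at 8.01, 7.97, 7.85 and 7.83, at 6.94, 6.95, 6.97 and 7.03 and at 7.02, 7.02, 7.16 and 7.01 at these times. Every value at 0 h was above every value at 4 and 24 h, in both treatments. The fall at 4 h in sham samples was -1.02 ± 0.05 (log2 difference ± SE, n = 4 per group, adjusted p = 7.42e-13), or 0.492 of the level at 0 h. Its partner chain gene Col1a1 fell by less, with -0.56 ± 0.06 (adjusted p = 4.64e-08), and all 3 of its probes fell, with differences of -0.56, -0.53 and -0.70. Col3a1, which encodes the chain of type III collagen, had a difference of -0.65 ± 0.06 (adjusted p = 2.2e-08).

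Col2a1 encodes the chain of type II collagen, best known from cartilage. Sham samples had Col2a1 at 1.97, 1.96, 1.81 and 1.80 at 0 h, at 0.30, 0.21, 0.18 and 0.40 at 4 h and at 1.38, 1.34, 1.35 and 1.42 at 24 h. Exposed samples had Col2a1 at 2.15, 2.10, 1.62 and 1.44, at 0.37, 0.17, 0.52 and 0.49 and at 1.39, 1.23, 1.28 and 1.20 at these times. The values at 4 h lay below all others and those at 24 h lay between, with no overlap of the sham groups. The difference was -1.62 ± 0.12 at 4 h (adjusted p = 2.7e-10), the largest fall among the collagen genes that were well above background on all arrays, and 1.10 ± 0.12 between 4 and 24 h (adjusted p = 1.09e-07). Col11a1, which encodes a chain of the minor fibrillar type XI, was a dim probe. Sham samples had Col11a1 at -3.05, -2.84, -3.14 and -3.01 at 0 h, at -4.00, -4.15, -3.72 and -4.23 at 4 h and at -3.74, -3.53, -3.57 and -3.51 at 24 h. Exposed samples had Col11a1 at -3.00, -3.04, -3.17 and -3.00, at -4.02, -3.66, -3.91 and -4.80 and at -4.06, -3.97, -3.65 and -3.91 at these times. In sham samples it fell at 4 h, with a difference of -1.02 ± 0.17 (adjusted p = 2.47e-05), and 3 of 4 exposed arrays were not well above background at both 4 and 24 h.

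The genes of type V collagen, which joins type I in mixed fibrils, did not move together. Sham samples had Col5a1 at 4.62, 4.64, 4.56 and 4.73 at 0 h, at 5.48, 5.48, 5.35 and 5.37 at 4 h and at 4.28, 4.23, 4.21 and 4.21 at 24 h. Exposed samples had Col5a1 at 4.70, 4.55, 4.70 and 4.92, at 5.36, 5.43, 5.37 and 5.42 and at 4.18, 4.02, 4.07 and 3.95 at these times. Col5a1 was highest at 4 h and lowest at 24 h without overlap, and its rise at 4 h was 0.78 ± 0.06 (adjusted p = 1.41e-09). Sham samples had Col5a3 at -2.46, -2.59, -2.52 and -2.36 at 0 h, at -2.05, -2.08, -1.95 and -1.83 at 4 h and at -3.11, -3.09, -3.06 and -3.01 at 24 h. Exposed samples had Col5a3 at -2.86, -2.63, -2.32 and -2.38, at -2.10, -2.23, -1.85 and -1.82 and at -3.35, -4.08, -2.73 and -3.65 at these times. Col5a3 followed the same order in sham samples, with 0.50 ± 0.19 at 4 h (adjusted p = 0.0266), while 2 of the exposed arrays at 24 h were not well above background. Col5a2 went the other way at 4 h, with -0.95 ± 0.08 (adjusted p = 3.78e-09).

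Col27a1, which encodes a fibrillar collagen of developing cartilage, was the fibrillar gene with the largest rise. Sham samples had Col27a1 at -0.70, -0.65, -0.75 and -0.69 at 0 h, at 0.24, 0.58, 0.52 and 0.62 at 4 h and at -0.53, -0.54, -0.47 and -0.53 at 24 h. Exposed samples had Col27a1 at -0.71, -0.79, -0.66 and -0.65, at 0.20, 0.28, 0.41 and 0.47 and at -0.62, -0.65, -0.53 and -0.56 at these times. The 4 h values were the only ones above 0, and the difference was 1.19 ± 0.07 (adjusted p = 8.01e-12), 2.28 times the level at 0 h. Col24a1 was tested because 2 arrays of the sham group at 24 h were well above background, and no other array was. Sham samples had Col24a1 at -5.02, -4.82, -5.92 and -4.96 at 0 h, at -5.82, -7.03, -6.60 and -7.45 at 4 h and at -4.57, -4.65, -5.60 and -4.33 at 24 h. Exposed samples had Col24a1 at -5.81, -6.21, -5.90 and -5.50, at -5.88, -6.23, -5.74 and -6.21 and at -4.87, -4.79, -4.59 and -4.56 at these times. Its called difference of -1.55 at 4 h is between groups that were both below background on all arrays and no fold is given for it. Between 4 and 24 h in sham samples it was called higher (adjusted p = 1.82e-05), at least 1.11-fold counting from the lowest signal that was well above background. The sham group at 24 h is the one through which it passed the filter. Only 2 of the arrays of that group were well above background, so the call is no separate support for a rise. Col11a2 was not called, with 0.09 ± 0.36 (adjusted p = 0.849).

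**Figure D2:**
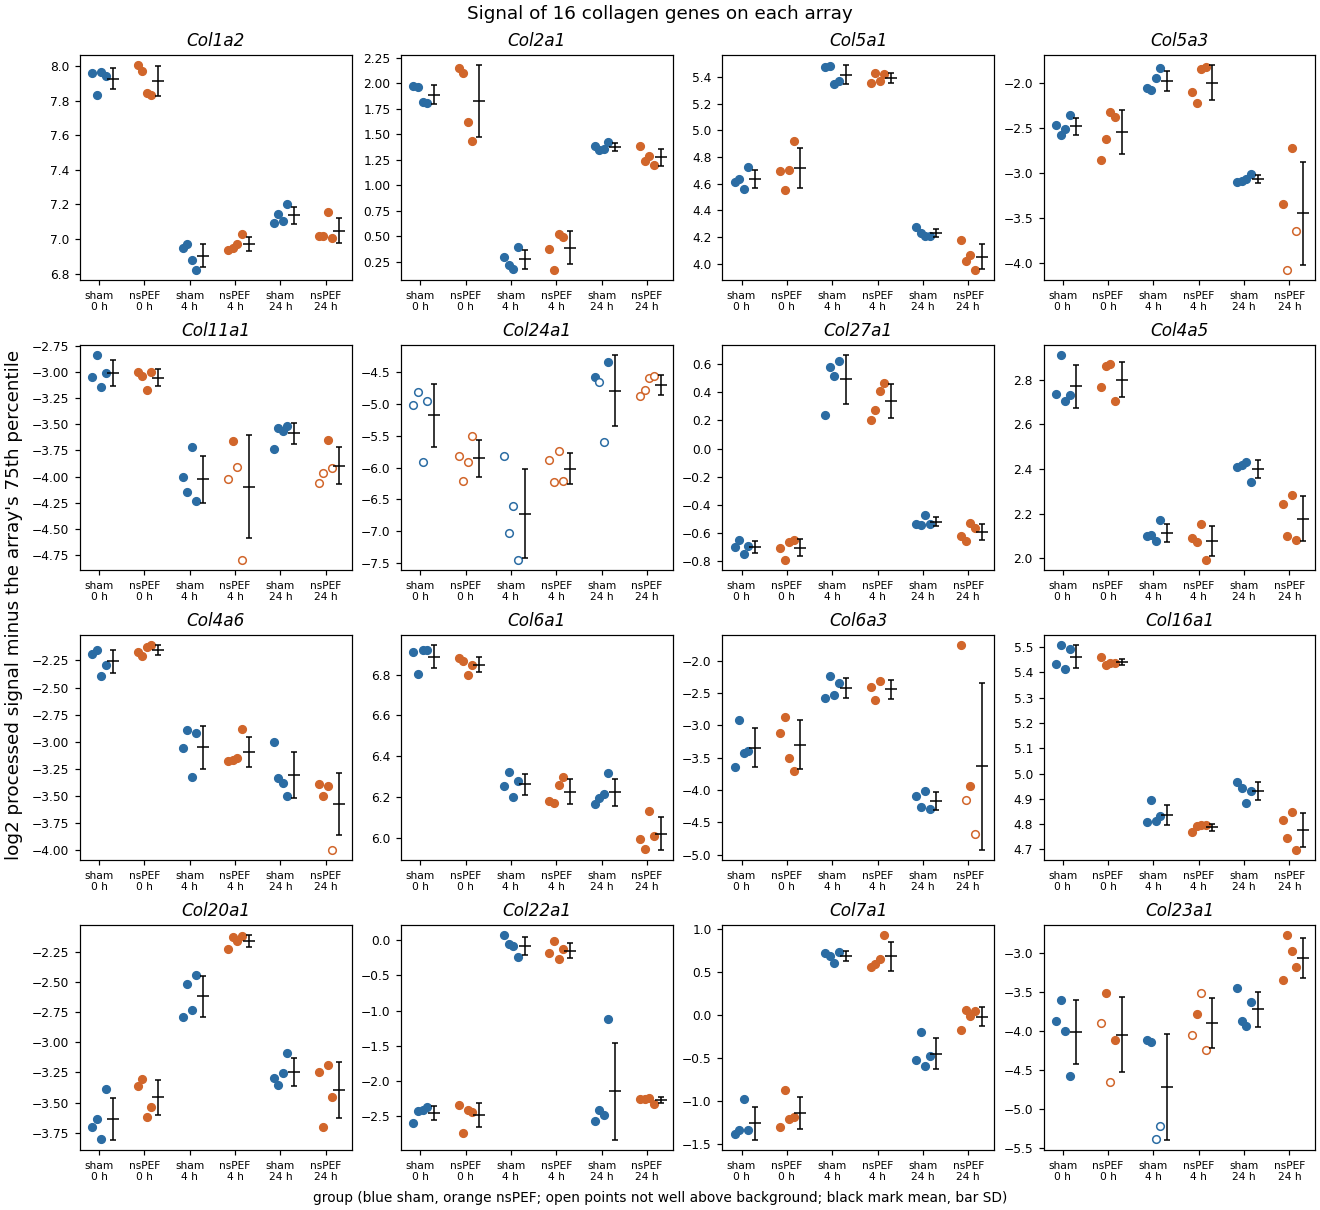
Log2 signal relative to the 75th percentile of each array for 16 collagen genes in the 6 groups. Points are arrays (blue sham, orange nsPEF, open where not well above background), with the mean and SD of each group beside them, and each panel has its own scale. Col1a2 and Col2a1 dropped at 4 h, while Col7a1, Col22a1 and Col27a1 peaked at 4 h in both treatments.

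The 4 tested type IV genes moved in 2 pairs at 4 h. Col4a1 and Col4a2, which encode the chains of the ubiquitous basement membrane network and start 21 bases apart, were both higher at 4 h, and Col4a5 and Col4a6, the X-linked pair shown above, were both lower. Sham samples had Col4a1 at 4.03, 4.00, 4.09 and 4.14 at 0 h, at 4.80, 4.87, 4.72 and 4.73 at 4 h and at 4.07, 4.08, 3.90 and 4.03 at 24 h. Exposed samples had Col4a1 at 4.09, 3.98, 4.15 and 4.29, at 4.78, 4.67, 4.73 and 4.74 and at 4.09, 4.00, 3.95 and 4.04 at these times. The rise of Col4a1 was 0.71 ± 0.06 (adjusted p = 2.18e-09), and its 24 h values overlapped those at 0 h. Sham samples had Col4a2 at 3.96, 3.90, 4.10 and 4.02 at 0 h, at 4.28, 4.36, 4.31 and 4.37 at 4 h and at 3.82, 3.89, 3.88 and 3.97 at 24 h. Exposed samples had Col4a2 at 3.85, 3.90, 3.96 and 3.95, at 4.26, 4.18, 4.22 and 4.33 and at 3.76, 3.81, 3.93 and 3.98 at these times. The rise of Col4a2 was smaller, 0.34 ± 0.06 (adjusted p = 2.33e-05), without overlap between 0 and 4 h. Sham samples had Col4a5 at 2.74, 2.91, 2.70 and 2.73 at 0 h, at 2.10, 2.10, 2.08 and 2.17 at 4 h and at 2.41, 2.42, 2.43 and 2.34 at 24 h. Exposed samples had Col4a5 at 2.77, 2.86, 2.87 and 2.70, at 2.09, 2.07, 2.15 and 1.99 and at 2.24, 2.10, 2.28 and 2.08 at these times. Col4a5 fell without overlap, with a difference of -0.66 ± 0.06 (adjusted p = 3.61e-09) and of -0.93 on its second probe. Sham samples had Col4a6 at -2.19, -2.16, -2.39 and -2.29 at 0 h, at -3.06, -2.89, -3.33 and -2.92 at 4 h and at -3.00, -3.33, -3.38 and -3.50 at 24 h. Exposed samples had Col4a6 at -2.17, -2.21, -2.12 and -2.11, at -3.18, -3.16, -3.15 and -2.88 and at -3.39, -3.50, -3.41 and -4.00 at these times. Col4a6 had -0.79 ± 0.13 at 4 h (adjusted p = 1.75e-05) and -1.04 ± 0.13 at 24 h (adjusted p = 2.17e-06), and under scaling to spike-in RNA it was still lower at 24 h. Of the 4 genes, all 4 were called at 4 h in both treatments, in the same directions. From 4 to 24 h the X-linked pair did not move together relative to the array. In sham samples Col4a5 was called higher (0.29 ± 0.06, adjusted p = 0.00023) and Col4a6 was not called (-0.25 ± 0.13). In exposed samples Col4a6 was called lower (-0.48 ± 0.13, adjusted p = 0.00304) and Col4a5 was not called (0.10 ± 0.06).

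The beaded filament genes Col6a1 and Col6a2 fell together at 4 h. Sham samples had Col6a1 at 6.91, 6.80, 6.92 and 6.92 at 0 h, at 6.25, 6.32, 6.20 and 6.28 at 4 h and at 6.16, 6.19, 6.21 and 6.32 at 24 h. Exposed samples had Col6a1 at 6.88, 6.87, 6.80 and 6.85, at 6.18, 6.17, 6.26 and 6.30 and at 6.00, 5.95, 6.13 and 6.01 at these times. The difference of Col6a1 was -0.62 ± 0.05 (adjusted p = 6.73e-10), and that of Col6a2 was -0.79 ± 0.07 (adjusted p = 9.03e-09). Col6a3, which encodes the longest chain of the type VI molecule, did not follow them. Sham samples had Col6a3 at -3.64, -2.91, -3.43 and -3.39 at 0 h, at -2.57, -2.25, -2.53 and -2.34 at 4 h and at -4.10, -4.26, -4.02 and -4.30 at 24 h. Exposed samples had Col6a3 at -3.12, -2.87, -3.51 and -3.70, at -2.41, -2.61 and -2.32 and at -1.76, -4.16, -3.94 and -4.68 at these times. One exposed array at 4 h had its Col6a3 spot marked as not uniform and is not listed. The difference of Col6a3 at 4 h was 0.92 ± 0.40 (adjusted p = 0.0548), and from 4 to 24 h it fell in sham samples, with -1.75 ± 0.40 (adjusted p = 0.000934). Col6a4 was not called at either time.

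Among the genes of fibril-associated collagens, Col22a1, which encodes a collagen of tissue junctions, had the largest rise of all collagen genes. Sham samples had Col22a1 at -2.60, -2.43, -2.41 and -2.37 at 0 h, at 0.08, -0.06, -0.08 and -0.24 at 4 h and at -2.57, -2.41, -2.48 and -1.12 at 24 h. Exposed samples had Col22a1 at -2.34, -2.74, -2.42 and -2.43, at -0.18, -0.02, -0.27 and -0.13 and at -2.26, -2.26, -2.24 and -2.32 at these times. All 4 h values lay far above the others apart from 1 sham array at 24 h, at -1.12, which lay between. The rise was 2.38 ± 0.21 in sham samples (adjusted p = 3.36e-09), 5.20-fold, and 2.33 ± 0.21 in exposed samples. A second probe of the gene gave -0.19 at 4 h in sham samples (adjusted p = 0.69), so that the rise rests on 1 of its probes. Sham samples had Col20a1 at -3.71, -3.64, -3.80 and -3.39 at 0 h, at -2.79, -2.51, -2.73 and -2.44 at 4 h and at -3.29, -3.35, -3.25 and -3.09 at 24 h. Exposed samples had Col20a1 at -3.36, -3.30, -3.62 and -3.54, at -2.22, -2.12, -2.16 and -2.11 and at -3.24, -3.70, -3.19 and -3.46 at these times. Col20a1 rose at 4 h without overlap, by 1.02 ± 0.11 in sham samples (adjusted p = 1.06e-07).

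Col12a1 and Col16a1, whose products bind to fibrils of type I collagen or lie near them, were lower at 4 h, with -0.64 ± 0.07 (adjusted p = 1.4e-07) and -0.62 ± 0.04 (adjusted p = 1.7e-11). Sham samples had Col16a1 at 5.43, 5.51, 5.41 and 5.49 at 0 h, at 4.81, 4.90, 4.81 and 4.83 at 4 h and at 4.97, 4.94, 4.88 and 4.93 at 24 h. Exposed samples had Col16a1 at 5.46, 5.43, 5.44 and 5.44, at 4.77, 4.79, 4.80 and 4.80 and at 4.81, 4.75, 4.85 and 4.70 at these times. The 0 h values of Col16a1 lay above all later values in both treatments. Col9a3 was called higher in sham samples at 4 h, 0.94 ± 0.32 (adjusted p = 0.0159), and is counted among the rises above. Its probe was well above background on 1 array at 0 h and 3 arrays at 4 h, and its direction turned with the normexp correction. The sham group at 4 h is the only group through which it passed the filter, so the call is no separate support for a rise. Col14a1 had -0.69 ± 0.30 (adjusted p = 0.0510). Col9a1, Col9a2 and Col19a1 were not called at 4 h.

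The largest rise after that of Col22a1 was that of Col7a1, which encodes the collagen of the anchoring fibrils that tie the basement membrane of skin to the tissue below. Sham samples had Col7a1 at -1.39, -1.34, -0.98 and -1.35 at 0 h, at 0.72, 0.69, 0.60 and 0.73 at 4 h and at -0.53, -0.20, -0.60 and -0.48 at 24 h. Exposed samples had Col7a1 at -1.30, -0.87, -1.21 and -1.19, at 0.56, 0.59, 0.65 and 0.93 and at -0.18, 0.06, -0.01 and 0.04 at these times. The 3 sham groups did not overlap, with 4 h above 24 h and 24 h above 0 h. The differences were 1.95 ± 0.11 at 4 h (adjusted p = 4.38e-12), 3.86-fold, and 0.81 ± 0.11 at 24 h (adjusted p = 8.64e-06). Col18a1, the source of endostatin, fell at 4 h, with -0.63 ± 0.06 (adjusted p = 1.32e-08). The transmembrane gene Col23a1 was dim. Sham samples had Col23a1 at -3.87, -3.60, -4.00 and -4.58 at 0 h, at -4.12, -4.15, -5.39 and -5.22 at 4 h and at -3.45, -3.87, -3.94 and -3.63 at 24 h. Exposed samples had Col23a1 at -3.91, -3.51, -4.66 and -4.12, at -4.05, -3.79, -3.51 and -4.25 and at -3.35, -2.77, -2.97 and -3.18 at these times. Its sham groups at 0 and 4 h overlapped, and the difference was -0.71 ± 0.29 (adjusted p = 0.0418). Col8a1, of a short-chain network collagen, fell slightly, with -0.17 ± 0.05 (adjusted p = 0.00804). Col17a1, Col15a1 and Col26a1 were not called.

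Genes that mark other cells of the testis also differed between times in these cultures, which were all of the TM3 line. In the lists given here 1 or 2 probes carry nearly all of the summed signal, so the leading genes are given too. The sum over Acta2, Cnn1 and Myh11, markers of contractile peritubular cells, was 28.7 to 36.3 times the 75th percentile at 0 h in sham samples and 46.3 to 58.3 times at 4 h. Acta2, which makes up most of it, lay between 4.83 and 5.17 and then between 5.50 and 5.85 on the log2 scale, Cnn1 between -1.77 and -1.63 and then between -0.50 and -0.24, and Myh11 was well above background on 17 arrays. The sum over 5 Sertoli cell genes was 30.4 to 37.2 at 0 h and 17.4 to 22.6 at 4 h. It was nearly all Wt1, at 4.88 to 5.18 and then 4.08 to 4.47, Sox9 had -0.14 to -0.10 and then -1.50 to -1.12, and Amh, Fshr and Dhh were well above background on 2, 1 and 0 arrays. The sum over 4 macrophage genes was 3.11 to 3.31 at 0 h and 4.84 to 5.80 at 4 h, with Csf1r higher at 4 h (1.94 to 2.24, from 0.38 to 0.61) and Cd68 lower (-0.43 to 0.19, from 0.80 to 0.87), and Ptprc and Adgre1 on 1 array each. The sum over 3 endothelial genes was 0.123 to 0.156 and then 0.0963 to 0.108, carried by Pecam1, with Cdh5 on 0 arrays and Kdr on 1. The sums of the Leydig and the germ cell genes overlapped between 0 and 4 h, but single genes differed. Star was higher at 4 h (-2.36 to -1.79, from -3.34 to -2.88). Cyp17a1, which carries the Leydig sum, overlapped (1.64 to 2.04, from 2.00 to 2.55), as did Nr5a1 (-1.98 to -1.79, from -2.34 to -1.90). Ddx4 was lower at 4 h (-3.93 to -3.22, from -3.09 to -2.67), and Dazl and Sycp3 were well above background on 2 and 1 arrays. The part of these genes in the collagen values was not tested.

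By 24 h after sham treatment most fibrillar genes were lower than at 0 h when each array was set to its own 75th percentile. Among these, Col5a1 and Col5a3 had been called higher at 4 h. However, most collagen genes were higher than at 0 h when arrays were set to the spike-in RNA. Of the 35 genes 18 changed from 0 to 24 h, 2 upwards (Col7a1 and Col20a1, the latter below 0 with the normexp correction) and 16 downwards, against 38.6% of all genes (15.7% up, 22.8% down). Under spike-in scaling the split was 21 up and 1 down, Col4a6, and the median of all probes rose by 0.73 in the same comparison. The directions at 24 h are therefore relative to the other genes of the array, and under spike-in scaling the falls of Col1a1, Col2a1, Col3a1, Col5a1, Col5a2, Col5a3, Col11a1, Col4a5, Col6a1, Col6a2, Col12a1, Col16a1 and Col18a1 turned to differences above 0. Relative to the array, fibrillar genes fell in 8 of 11 cases and rose in 0, and under spike-in scaling 5 rose and 0 fell. Here and below, counts under spike-in scaling have no share of all genes beside them and cannot be set against the shares given. Col1a2 had -0.79 ± 0.05 (adjusted p = 4.3e-10), Col5a2 -0.61 ± 0.08 (adjusted p = 9.24e-06) and Col6a1 -0.67 ± 0.05 (adjusted p = 2.32e-09). Col4a1 and Col4a2 were not called at 24 h, with intervals of the difference of -0.17 to 0.08 and -0.22 to 0.01.

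Between 4 and 24 h in sham samples 21 of 35 genes changed, 12 up and 9 down, against 65.5% of all genes (31.7% up, 33.8% down). Under spike-in scaling the split was 24 up and 5 down, with a median of all probes of 0.69. With the normexp correction it was 6 up and 8 down. The falls included genes that had risen at 4 h, with -2.07 ± 0.21 for Col22a1, -1.19 ± 0.06 for Col5a1, -1.14 ± 0.11 for Col7a1, -1.01 ± 0.07 for Col27a1 and -0.76 ± 0.06 for Col4a1, and these 5 kept their direction under every scaling tried. The falls of Col4a2 and Col20a1 turned to small rises under spike-in scaling. Col5a3 fell too, with -1.09 ± 0.19.

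In exposed samples each later time was compared with the exposed samples at 0 h. From 0 to 4 h 24 of 35 genes changed, 10 up and 14 down, against 67.7% of all genes (34.8% up, 33% down). Col22a1 had 2.33 ± 0.21, Col7a1 1.83 ± 0.11, Col20a1 1.30 ± 0.11, Col27a1 1.04 ± 0.07 and Col5a1 0.68 ± 0.06, all called. Col2a1 had -1.44 ± 0.12, Col11a1 -1.05 ± 0.17, Col5a2 -1.04 ± 0.08 and Col1a2 -0.94 ± 0.05, also called. Col26a1 was called higher, 0.77 ± 0.22 (adjusted p = 0.00532), and so was Col9a3, between groups that were below background on all arrays. From 0 to 24 h 21 genes changed, 5 up and 16 down, against 45.8% of all genes (24.3% up, 21.5% down). The split was 15 up and 5 down under spike-in scaling, with a median of all probes of 0.59. It was 2 up and 14 down with the normexp correction. The 5 that rose were Col7a1, Col17a1, Col23a1, Col9a3 and Col24a1, of which Col24a1 was below background on all arrays of both groups and Col9a3 was above it on 0 arrays at 0 h and 1 at 24 h, so that no fold is given for either. From 4 to 24 h 18 genes changed, 5 up and 13 down, against 63.4% of all genes (31.7% up, 31.7% down). Among the 5 that rose, Col24a1 was below background on all arrays of both groups. The split was 17 up and 7 down under spike-in scaling, with a median of all probes of 0.40. It was 11 up and 13 down with quantile normalization, and 13 up and 11 down with the percentile taken over the probes detected everywhere.

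**Figure D3:**
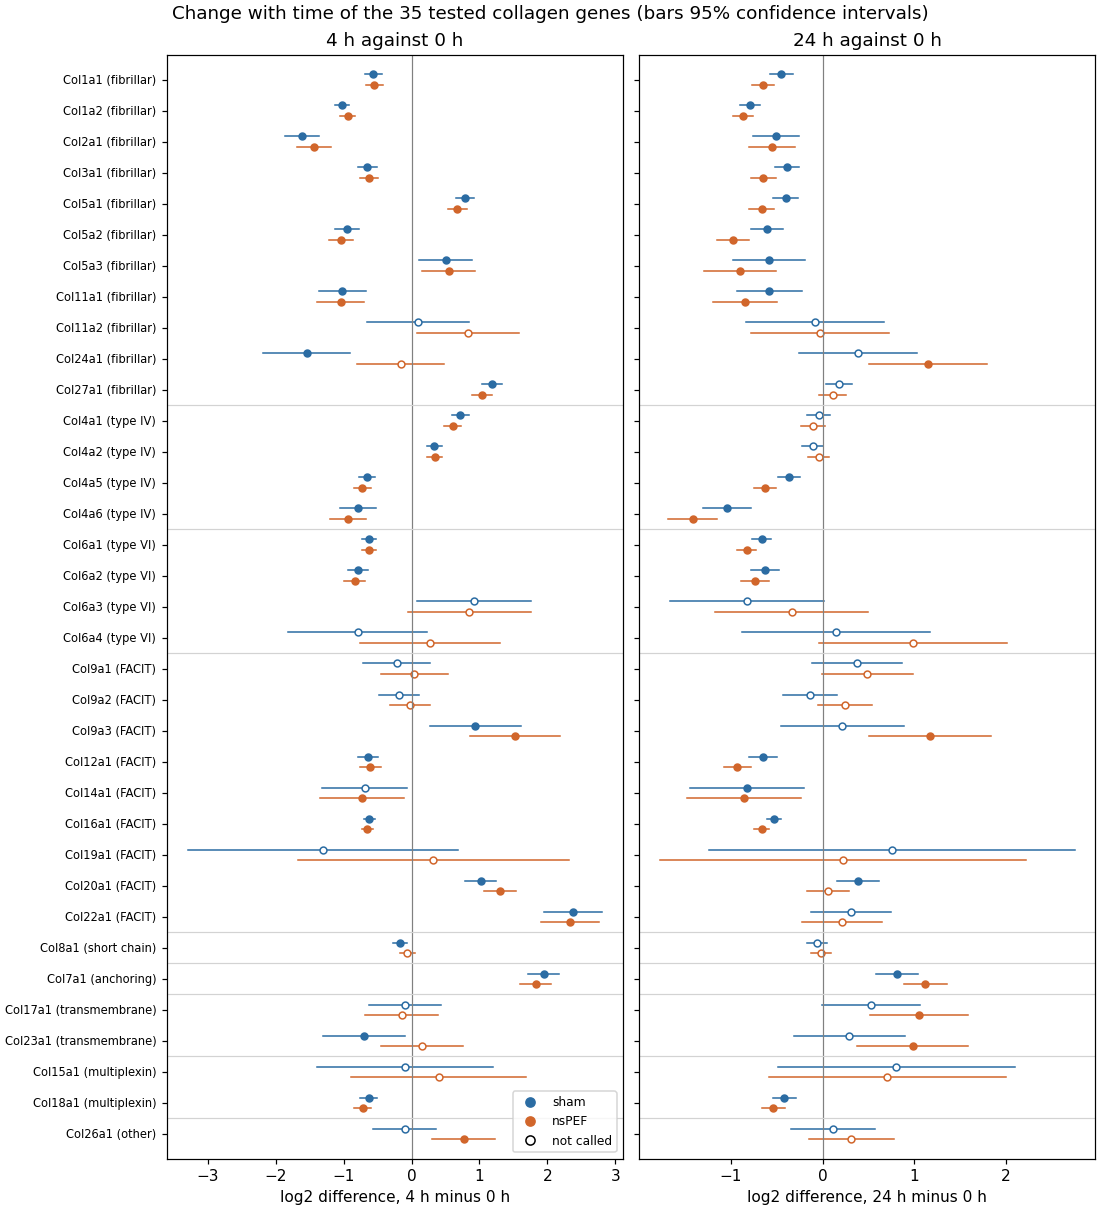
Log2 difference from 0 h at 4 and 24 h for each tested collagen gene in sham and in nsPEF samples, with 95% confidence intervals and filled points for called genes, under scaling to the 75th percentile of each array. Col22a1, Col7a1 and Col27a1 lie far to the right at 4 h and Col2a1 to the left. Under scaling to spike-in RNA most of the 24 h differences in sham samples below 0 lie above 0.

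Exposure itself was accompanied by few called differences among the collagen genes. Right after treatment 0 of 35 genes differed between nsPEF and sham by limma, and 0.101% of all genes differed. At an unadjusted p under 0.05 there were 2 of 35 (Col24a1 and Col6a4, both dim) and 1427 of all 16842 genes. The count was 0 under every alternative run. The 95% interval of the difference was -0.09 to 0.15 for Col1a1, -0.12 to 0.10 for Col1a2, -0.04 to 0.23 for Col3a1, -0.06 to 0.19 for Col4a1 and -0.14 to 0.06 for Col6a1. At 4 h 1 of 35 genes differed, against 4.03% of all genes (1.69% higher, 2.35% lower). An unadjusted p under 0.05 was found for 6 of 35 and for 3872 of all 16842 genes. The called gene was Col20a1, which encodes a fibril-associated collagen and was higher in nsPEF samples by 0.46 ± 0.11 (95% interval 0.23 to 0.70, adjusted p = 0.0284). Its values, given above, did not overlap, with sham samples at -2.79, -2.51, -2.73 and -2.44 and exposed samples at -2.22, -2.12, -2.16 and -2.11. The difference was lost with quantile normalization (0.27, adjusted p = 0.196), with centring by spot row and signal (0.34, adjusted p = 0.143) and with only the 8 arrays of the comparison fitted (adjusted p = 0.0726). It was also lost without sham replicate 1 or 3 or nsPEF replicate 3 or 4 at 4 h, and without any 1 of the 4 replicate numbers over all groups. Under spike-in scaling 8 genes were higher at 4 h and 0 lower, with a median of all probes of 0.21 in that comparison. The share of all genes under that scaling is not given, so that this count cannot be set against 4.03%. Col26a1 had 0.76 ± 0.22 (adjusted p = 0.0622).

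At 24 h 4 of 35 genes differed, against 5.74% of all genes (2.76% higher, 2.98% lower). An unadjusted p under 0.05 was found for 12 of 35 and for 4189 of all 16842 genes. Col7a1 was higher in nsPEF samples by 0.43 ± 0.11 (95% interval 0.20 to 0.66, adjusted p = 0.0327), 1.35-fold, and all exposed values, the lowest of them -0.18, lay above the highest sham value of -0.20. Col4a5, Col6a1 and Col16a1 were lower, with differences of -0.22 ± 0.06 (adjusted p = 0.0314), -0.20 ± 0.05 (adjusted p = 0.0250) and -0.15 ± 0.04 (adjusted p = 0.0291), and none of the 3 overlapped between the groups. The second probes did not pass, with -0.21 for Col4a5 (adjusted p = 0.38) and 0.15, the opposite sign, for Col16a1 (adjusted p = 0.62). Col6a2 had -0.12 ± 0.07 (adjusted p = 0.356) on its brightest probe and -0.30 (adjusted p = 0.014) on a second. Col23a1 had 0.66 ± 0.29 (adjusted p = 0.189) on its brightest probe and 2.48 (adjusted p = 0.029) on a second. In the fibrillar family 0 of 11 genes were called, with -0.29 ± 0.08 for Col5a2 (adjusted p = 0.0508), -0.17 ± 0.06 for Col1a1 (adjusted p = 0.0915) and -0.18 ± 0.06 for Col5a1 (adjusted p = 0.110), and the groups did not overlap for Col1a1 and Col5a1. The groups did not overlap in 7 of 35 collagen genes and in 15.7% of all genes. Under spike-in scaling 0 genes were called. With quantile normalization 1 was higher and 6 were lower, with the percentile over the probes detected everywhere 1 was higher and 1 lower, and with the normexp correction 0 were higher and 2 lower. Without nsPEF replicate 2 or nsPEF replicate 4 at 24 h 0 genes were called, and without nsPEF replicate 1 at 24 h 7 were. Without sham replicate 1, 2 or 3 at 24 h 1 gene was called. Each of the 4 calls of the main fit was also lost without any 1 of the 4 replicate numbers over all groups.

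**Figure D4:**
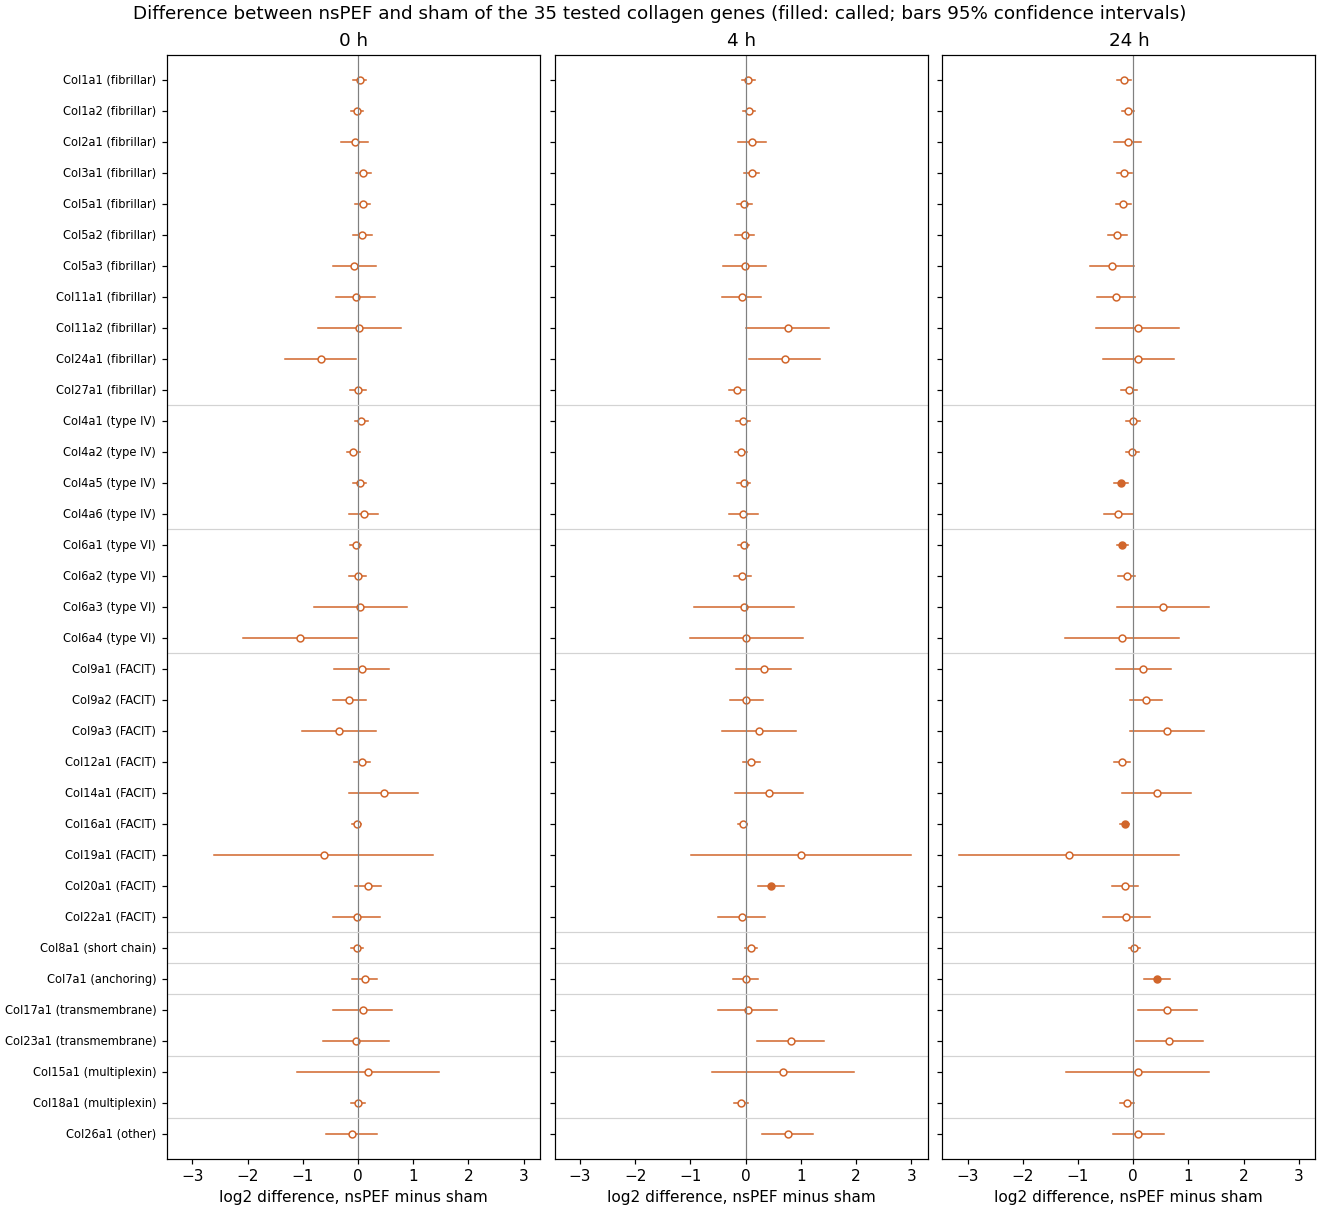
Log2 difference of nsPEF from sham at 0, 4 and 24 h for each tested collagen gene, with 95% confidence intervals from limma. Filled points, the called genes, are Col20a1 at 4 h and Col7a1, Col4a5, Col6a1 and Col16a1 at 24 h.

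Over the 3 time points together 2 genes differed, Col6a1 (-0.09 ± 0.03, adjusted p = 0.0470) and Col16a1 (-0.07 ± 0.02, adjusted p = 0.0418), both lower in nsPEF samples and both above 0 under spike-in scaling, against 10.1% of all genes (4.01% higher, 6.04% lower). With the replicate number as a block neither was called (adjusted p = 0.0502 and 0.0547), and Col23a1 was (0.48 ± 0.15, adjusted p = 0.0497). Of 41 alternatives, arrays left out included, 30 ended or turned the call of Col6a1 and 28 that of Col16a1. The test of whether the course over time differed between treatments called 0 of 35 collagen genes by limma, against 0.428% of all genes. Col20a1 had the smallest p of the 35 in that test, adjusted p = 0.124. At an unadjusted p under 0.05 there were 11 genes, and under spike-in scaling 7 were called. The shares of all genes for these 2 counts are not given, so that neither can be set against 0.428%. A change over time in either treatment was called for 29 of 35 genes, against 84.2% of all genes. The 6 without it were Col11a2, Col6a4, Col9a2, Col19a1, Col15a1 and Col26a1.

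The genes that fold, process, degrade and bind collagen were read from 5 lists. Of 19 tested genes of collagen folding, modification and export, 5 rose and 8 fell at 4 h in sham samples, 68.4%, near the 65.4% of all genes called in that comparison (30.8% up, 34.6% down). At 24 h the share over all genes, against which the later counts of each list stand, was 38.6% (15.7% up, 22.8% down). Plod2 and Plod3, which hydroxylate lysines of the chains, rose by 1.04 ± 0.07 and 0.59 ± 0.07, and Mia2, a factor of the export of large cargo, by 0.46 ± 0.06. Fkbp14, a foldase of the endoplasmic reticulum, had -2.17 ± 0.09, P3h3, a prolyl 3-hydroxylase family member, -1.07 ± 0.05, and P4ha3, a prolyl 4-hydroxylase subunit, -0.64 ± 0.14. The split was 3 up and 9 down with quantile normalization and 3 up and 10 down with the percentile over the probes detected everywhere. At 24 h 3 rose and 10 fell relative to the array, 16 rose and 0 fell under spike-in scaling, and 3 rose and 5 fell with quantile normalization. Plod2 (0.61 ± 0.07), P4ha1 (0.50 ± 0.12) and P4ha2 (0.19 ± 0.06) led the rises, and P4ha3 (-0.98 ± 0.14), Fkbp14 (-0.70 ± 0.09) and P3h1 (-0.64 ± 0.07) the falls.

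The list of propeptide cleavage and crosslinking fell at 4 h in 10 of 12 genes and rose in 1, where 34.6% of all genes fell and 30.8% rose. The exception was Pcolce2, an enhancer of procollagen C-proteinase, with 2.61 ± 0.08 (adjusted p = 7.42e-16). The largest falls were those of Loxl4 (-1.23 ± 0.13) and Loxl3 (-1.06 ± 0.08), of the lysyl oxidase family that crosslinks collagen, and Tll1 (-0.96 ± 0.18), a procollagen C-proteinase. The median was -0.53 against -0.04 over all genes. At 24 h 1 rose, Pcolce2 (0.40 ± 0.08), and 5 fell relative to the array, Lox (-1.09 ± 0.11) and Adamts2 (-0.45 ± 0.05) among them, with 9 up and 1 down under spike-in scaling and 2 up and 4 down with quantile normalization. Adamts3, a procollagen N-proteinase, was well above background on 4 sham arrays at 0 h and 0 at 24 h and was at least 1.76-fold lower at 24 h (adjusted p = 0.00454), counting from the lowest signal that was well above background.

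Of 16 genes of collagen breakdown and its inhibitors, 6 rose and 7 fell at 4 h, 81.2% against 65.4% of all genes. Mmp10 (2.40 ± 0.07) and Mmp1b (1.22 ± 0.18), both matrix metalloproteinases, and Timp1 (1.21 ± 0.07), an inhibitor of such enzymes, rose most. Mmp16 (-1.85 ± 0.26), Mmp11 (-1.43 ± 0.05) and Ctsk (-1.30 ± 0.22), the collagen-degrading cathepsin of bone, fell most, with Mmp16 well above background on 1 and Ctsk on 3 of the 4 sham arrays at 4 h. At 24 h 4 rose and 5 fell relative to the array, with Mmp1b at 2.56 ± 0.18, Mmp10 at 1.45 ± 0.07 and Mmp3 at 1.04 ± 0.05 on one side and Ctsk at -0.88 ± 0.22, Mmp9 at -0.59 ± 0.11 and Timp3 at -0.30 ± 0.05 on the other, with 13 up and 0 down under spike-in scaling and 5 up and 3 down with quantile normalization.

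Of 7 collagen receptor genes 2 rose and 4 fell at 4 h, 85.7% against 65.4% of all genes. Itgb1, the integrin chain shared by the collagen-binding integrins, rose by 0.77 ± 0.07 and Itga10 by 0.37 ± 0.07, while Itga11 (-1.78 ± 0.38) and Itga1 (-1.24 ± 0.19), which pair with Itgb1 in collagen receptors, and the receptor kinase Ddr2 (-0.37 ± 0.07) fell. Itga11 was well above background on 4 sham arrays at 0 h and on 1 at 4 h and 1 at 24 h, so that the size of its fall is uncertain. At 24 h the counts were again 2 and 4, with Itga10 (0.56 ± 0.07) and Itgb1 (0.20 ± 0.07) up and Itga1 (-1.45 ± 0.19), Ddr1 (-0.45 ± 0.09) and Itga11 (-1.51 ± 0.38) among the falls, against 4 up and 1 down under spike-in scaling. Among 18 matrix partners 6 rose and 7 fell at 4 h, 72.2% against 65.4% of all genes. The laminin chain gene Lamc1 rose by 1.28 ± 0.05 and Nid1, which links laminin and collagen IV in basement membranes, by 1.09 ± 0.05. Lama3, another laminin chain gene, was well above background on 0 sham arrays at 0 h and 3 at 4 h and rose at least 1.10-fold (adjusted p = 0.00628). The basement membrane gene Nid2 (-0.95 ± 0.07), Fmod (-0.72 ± 0.09), of the small proteoglycans that bind fibrils, and Lama5 (-0.56 ± 0.07) fell. At 24 h 1 rose, Nid1 (0.48 ± 0.05), and 9 fell relative to the array, led by Fmod (-1.45 ± 0.09), Nid2 (-1.20 ± 0.07) and Dcn (-0.99 ± 0.07), with 8 up and 3 down under spike-in scaling.

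**Figure D5:**
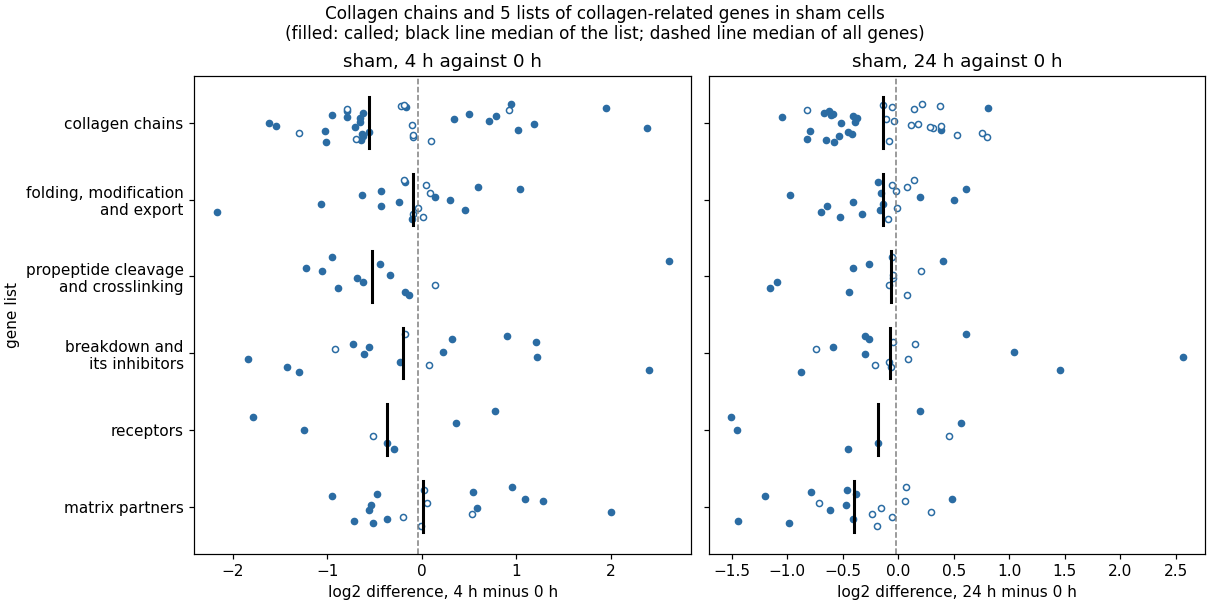
Log2 difference from 0 h in sham samples at 4 and 24 h for the tested genes of the 5 lists and the collagen genes, 1 point per gene, filled where called, with the median of each list as a black line and that of all genes as a dashed line, under scaling to the 75th percentile of each array, which at 24 h gives other directions than spike-in scaling for most genes. Pcolce2 and Mmp10 stand highest at 4 h and Fkbp14 lowest, and Lama3 at 4 h and Adamts3 at 24 h are drawn at their fitted differences although 1 of the groups was below background.

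Between nsPEF and sham at 24 h 0 of the 72 tested genes of the 5 lists were called higher and 9 were called lower under scaling to the 75th percentile, where 2.76% of all genes were higher and 2.98% lower. These were Fkbp14 (-0.34 ± 0.09), Lox (-0.56 ± 0.11), Mmp2 (-0.28 ± 0.08), Mmp10 (-0.33 ± 0.07), Mmp13 (-0.45 ± 0.11), Itga1 (-0.80 ± 0.19), Dcn (-0.29 ± 0.07), Fmod (-0.50 ± 0.09) and Nid2 (-0.39 ± 0.07). Itga1 was well above background on 2 of the 4 exposed arrays and all 4 sham arrays. The adjusted p was 0.00467 for Fmod and 0.00571 for Nid2, and 0.0476 for Mmp2. Under spike-in scaling 0 were higher, and of the lists in the order above 0, 1, 1, 1 and 2 genes were lower. At 4 h 1 of the 72 was called, Mia3, a factor of procollagen export, with -0.18 ± 0.05 (adjusted p = 0.0436).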

How the data were processed

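RNA of 24 TM3 cultures was labelled with Cy3 and hybridised to 1-colour Agilent mouse arrays. The authors scanned the arrays and read them with Agilent Feature Extraction 12.0, per the labels, and the deposited scanner output gives each spot a processed signal intensity in arbitrary units, background-subtracted and detrended and not scaled between arrays, with mean signal and background intensities beside it. A value table for the series was deposited too, with log2 values that the authors shifted to the 75th percentile and set against a baseline median for each probe. It has 56745 lines, and 0 of its columns lacked a sample. It served as an alternative. The medians of its columns lay between -0.204 and 0.291, and differences between arrays in it had the scale and sign of the scanner values.

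Spots that the software flagged as non-uniform or as outliers among replicates were left out (96 to 508 per array), 0 of the spots used were saturated, and the spots of a probe were averaged, giving 56605 probes, of which 34566 were named through their transcript in RefSeq. From log2 of the processed signal the 75th percentile of each array was subtracted. A probe was tested if detected in 2 or more of the 4 samples of any group (37684 probes), and each gene was represented by its brightest tested probe. Group means were fitted over all 24 arrays in R 4.3.3, using limma 3.58.1, with files read by data.table (version 1.17.8), where the paper's methods used a two-way analysis of variance. P values were adjusted by Benjamini and Hochberg over all tested probes, and a gene was called at an adjusted p under 0.05. The exact permutation tests of 4 arrays against 4 can give no p below 0.0286.

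The collagen genes and the 5 lists were chosen with earlier results of these data known. Every collagen gene is named. Values on every array are given for genes called with a log2 difference of at least 1 between sham time points or called between nsPEF and sham, and for Col4a1 and Col4a2, which were added after their values were seen. They are also given for Col23a1, whose brightest probe did not meet this rule in the main fit. It was called between nsPEF and sham over the 3 time points with the replicate block. From each list up to 3 of the largest rises and falls among the called genes are named, and all that were called between nsPEF and sham at 4 or 24 h. Of the matrix partners 1 gene is not reported here and was left out of the counts and median of its list. The fit was checked on simulated data. The number of arrays limits the precision. Alternatives were quantile normalization, scaling to spike-in RNA, the percentile over probes detected everywhere, the normexp background correction (offset 50), a floor at the background, other filters on dim probes, the mean over the probes of a gene, the methods' test, the deposited table, a replicate block, centring by spot row and signal, only the arrays compared, and leaving out arrays.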

Additional observations from a re-analysis of the deposited data

Results flagged for a closer look

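Among 209 sets of 4 arrays, 1 for each tested collagen gene and group, 12 had 1 array apart from the other 3 by Dixon's test, and chance gives about 1 in 20. In sham samples at 0 h these were Col1a2 with replicate 2 at 7.84, Col6a1 with replicate 2 at 6.80, Col4a5 with replicate 2 at 2.91, Col7a1 with replicate 3 at -0.98 and Col19a1 with replicate 4 at -2.20, where its other arrays lay between -7.16 and -6.84. In sham samples at 24 h they were Col22a1 with replicate 4 at -1.12, Col6a4 with replicate 4 at -2.16 and Col27a1 with replicate 3 at -0.47. In exposed samples they were Col4a6 with replicate 4 at 4 h at -2.88, Col18a1 with replicate 1 at 4 h at 2.06, Col1a2 with replicate 3 at 24 h at 7.16 and Col9a2 with replicate 3 at 24 h at -2.32.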

How the results depend on the processing

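Every comparison over time among the collagen genes kept its count of called genes within 1.5 times under each other normalization, filter and fit. Some directions turned. Under spike-in scaling the sham differences at 24 h against 0 h became 0.28 for Col1a1, 0.21 for Col2a1, 0.34 for Col3a1, 0.32 for Col5a1, 0.12 for Col5a2, 0.14 for Col5a3, 0.15 for Col11a1, 0.36 for Col4a5, 0.061 for Col6a1, 0.10 for Col6a2, 0.074 for Col12a1, 0.20 for Col16a1 and 0.31 for Col18a1. From 4 to 24 h Col4a2 became 0.23 and Col20a1 0.046 in sham samples, and Col4a2 0.050, Col6a1 0.22 and Col12a1 0.11 in exposed samples. Between nsPEF and sham over all times Col6a1 became 0.010 and Col16a1 0.028. Since spike-in scaling adds the same amount to every gene of an array, differences between genes within an array are not affected by it. With normexp Col9a3 became -0.12 at 4 h and Col20a1 -0.073 at 24 h in sham samples, with a floor at the background Col24a1 became -0.083 from 4 to 24 h in exposed samples, and with the mean over probes Col16a1 became -0.11 from 4 to 24 h in sham samples. Apart from spike-in scaling the cause was not tested.

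The counts between nsPEF and sham moved. At 4 h 1 gene became 0 with quantile normalization, 8 with spike-in scaling, 2 with the percentile over detected probes, 3 with a floor, 2 without a filter on dim probes, 2 with the mean over probes and 0 with centring by spot row. At 24 h 4 became 7 with quantile normalization, 0 with spike-in scaling, 2 with the percentile over detected probes, 2 with normexp, 7 with a floor and 0 with only the 8 arrays compared. Over all times 2 became 5 with spike-in scaling (5 up, 0 down), 0 with the percentile over detected probes, 0 with normexp, 9 with a floor (7 up, 2 down), 4 without a filter, 1 with the filter of all 4 arrays, 1 with a replicate block and 1 with centring by spot row. The interaction went from 0 to 7 with spike-in scaling. Leaving out arrays gave 23 to 27 genes for sham at 4 h, 16 to 19 at 24 h and 16 to 23 from 4 to 24 h, 22 to 26, 19 to 22 and 15 to 18 for nsPEF, 0 to 0, 0 to 2 and 0 to 7 for nsPEF against sham at 0, 4 and 24 h, 0 to 2 over all times, 28 to 30 for the time effect and 0 to 0 for the interaction. Samples with the same replicate number did not all deviate together (correlations -0.159 to 0.289, over 0.1 in 7 of 12 pairs, 5 best with their own number). The paper states that all tests of a biological replicate, apart from that of adhesion, used 1 shared cell suspension. The labels do not say that a number marks such a replicate, and whether it does was not tested. The main fit did not take same numbers as pairs, so any pairing by suspension is ignored in it. The replicate block moved no other count by over 1.5 times. The called differences between nsPEF and sham at 4 or 24 h were each lost under 11 to 14 of 42 alternatives, arrays left out included.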
